A study of Mus musculus with 5 samples.

Results

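The genes described here are 10 targets of the transcription factor NRF2 that code for antioxidant enzymes, a cystine transporter and the subunits of ferritin: Hmox1, Nqo1, Gclc, Gclm, Slc7a11, Txnrd1, Prdx1, Srxn1, Fth1 and Ftl1. They were chosen by gene symbol, each symbol had 1 row, and they are 10 of the 33696 genes in the count matrices. Blood mononuclear cells of C57BL/6N mice were sequenced cell by cell, in 5 libraries and 3 groups. The NO2-OA group is 1 library from mice kept for 15 weeks on a high-fat diet (HFD) and L-NAME, which blocks nitric oxide synthases, and given nitro-oleic acid (NO2-OA) for the last 4 weeks. The HFD + L-NAME group is 2 libraries from mice on the same regimen without NO2-OA, and the chow group is 2 libraries from mice on control diet. The regimen models heart failure with preserved ejection fraction, and it was shared by the NO2-OA and HFD + L-NAME groups. Age and sex of the mice, and whether each library is 1 animal, are not given in the sources used here, so p-values measure only the spread between libraries.

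NRF2, encoded by Nfe2l2, is held in the cytoplasm by KEAP1, which hands it to a ubiquitin ligase for destruction. Electrophiles such as nitrated fatty acids modify cysteines of KEAP1, and NRF2 then enters the nucleus, pairs with small MAF proteins and binds antioxidant response elements. Its targets make glutathione, reduce thioredoxin and peroxiredoxins, break down haem and store iron, and BACH1 holds several of them silent, Hmox1 above all. The comparison of NO2-OA with HFD + L-NAME asks how these genes stood in blood cells after the electrophile, and setting HFD + L-NAME against chow asks the same of the regimen.

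The core of the antioxidant response element can be written TGACNNNGC, or TGAGNNNGC in many elements. RefSeq's promoter windows (GRCm38.p6) held 8 of the 10 genes, in 11 windows, and the 250 bases before the start were searched on both strands. A match was found for 5 of the 8 genes, in 5 of their 11 windows (Txnrd1 has 3 windows and Fth1 2), while TGACNNNGC was found in 10.2% and TGAGNNNGC in 14.4% of all 32851 windows, and 1 or the other in 23%. Hmox1 and Gclc had no entry. Stretches of 49 bases around the match are shown for these 5, because the element is what targets of NRF2 are known to share, with the match in capitals and each read on the strand of its gene. The match lies 134 bases before the start in Gclm, 97 in Slc7a11, 92 in the second window of Txnrd1, 133 in Prdx1 and 45 in Srxn1, which has another at 158 bases.
Gclm, chr3:122245403-122245451, plus strand: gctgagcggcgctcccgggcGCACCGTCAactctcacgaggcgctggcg
Slc7a11, chr3:50443682-50443730, minus strand: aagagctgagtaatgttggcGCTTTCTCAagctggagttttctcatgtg
Txnrd1, chr10:82859094-82859142, plus strand: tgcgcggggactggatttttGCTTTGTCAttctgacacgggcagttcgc
Prdx1, chr4:116685446-116685494, plus strand: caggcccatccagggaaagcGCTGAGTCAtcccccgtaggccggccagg
Srxn1, chr2:152105459-152105507, plus strand: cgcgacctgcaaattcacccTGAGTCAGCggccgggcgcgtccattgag
The matches in Gclm, Slc7a11, Txnrd1 and Prdx1 read the element from the opposite strand, and the match shown for Srxn1 reads it along the gene, while its match at 158 bases reads it from the opposite strand. The windows of Nqo1, Fth1 and Ftl1 held neither form within these bases. A match describes the letters of the window and is not a measured site.

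Libraries held between 8488 and 17997 barcodes and between 71216133 and 122022000 unique molecular identifiers (UMIs), and between 7165 and 14771 cells were kept in each. Pairs of libraries shared 28 to 77 barcodes. Cells were grouped by marker genes into 10 classes, named as marker-like because no sort defines them, after the 10 genes and other pathway genes had been barred from the clustering. B-lineage-like, T-like, classical monocyte-like, non-classical monocyte-like and platelet-like cells had at least 50 cells in every library and were tested. Neutrophil-like cells numbered 12 in chow library 2, dendritic-like cells 3 in the NO2-OA library, and cavity-type macrophage-like cells were found in HFD + L-NAME library 2 and chow library 2 alone. The largest cluster of T-like cells was cluster 3 in the NO2-OA library (63.5%) and HFD + L-NAME library 1 (40.6%), and cluster 1 in HFD + L-NAME library 2 (51.6%) and in chow libraries 1 and 2 (73.6% and 63.2%). For B-lineage-like cells it was cluster 0 in the NO2-OA library (45.6%) and HFD + L-NAME library 1 (39.1%), cluster 5 in HFD + L-NAME library 2 (35.7%), and clusters 4 and 2 in chow libraries 1 and 2 (31.7% and 29%). A word in the names of the deposited matrices goes with the replicate number, and no NO2-OA library carries the second number. Levels are given as CPM, the UMIs of a gene scaled by all UMIs of its class in 1 library, for libraries with at least 20 cells of the class.

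The 10 genes fell into distinct patterns over the classes. Slc7a11 and Hmox1 were myeloid, Gclm, Srxn1 and the ferritins were highest in platelet-like cells, Txnrd1 and Prdx1 were high in monocyte-like cells, Gclc was spread over all leukocytes, and Nqo1 was near 0 throughout. Order and level of the classes are described without a test.

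**Figure D1:**
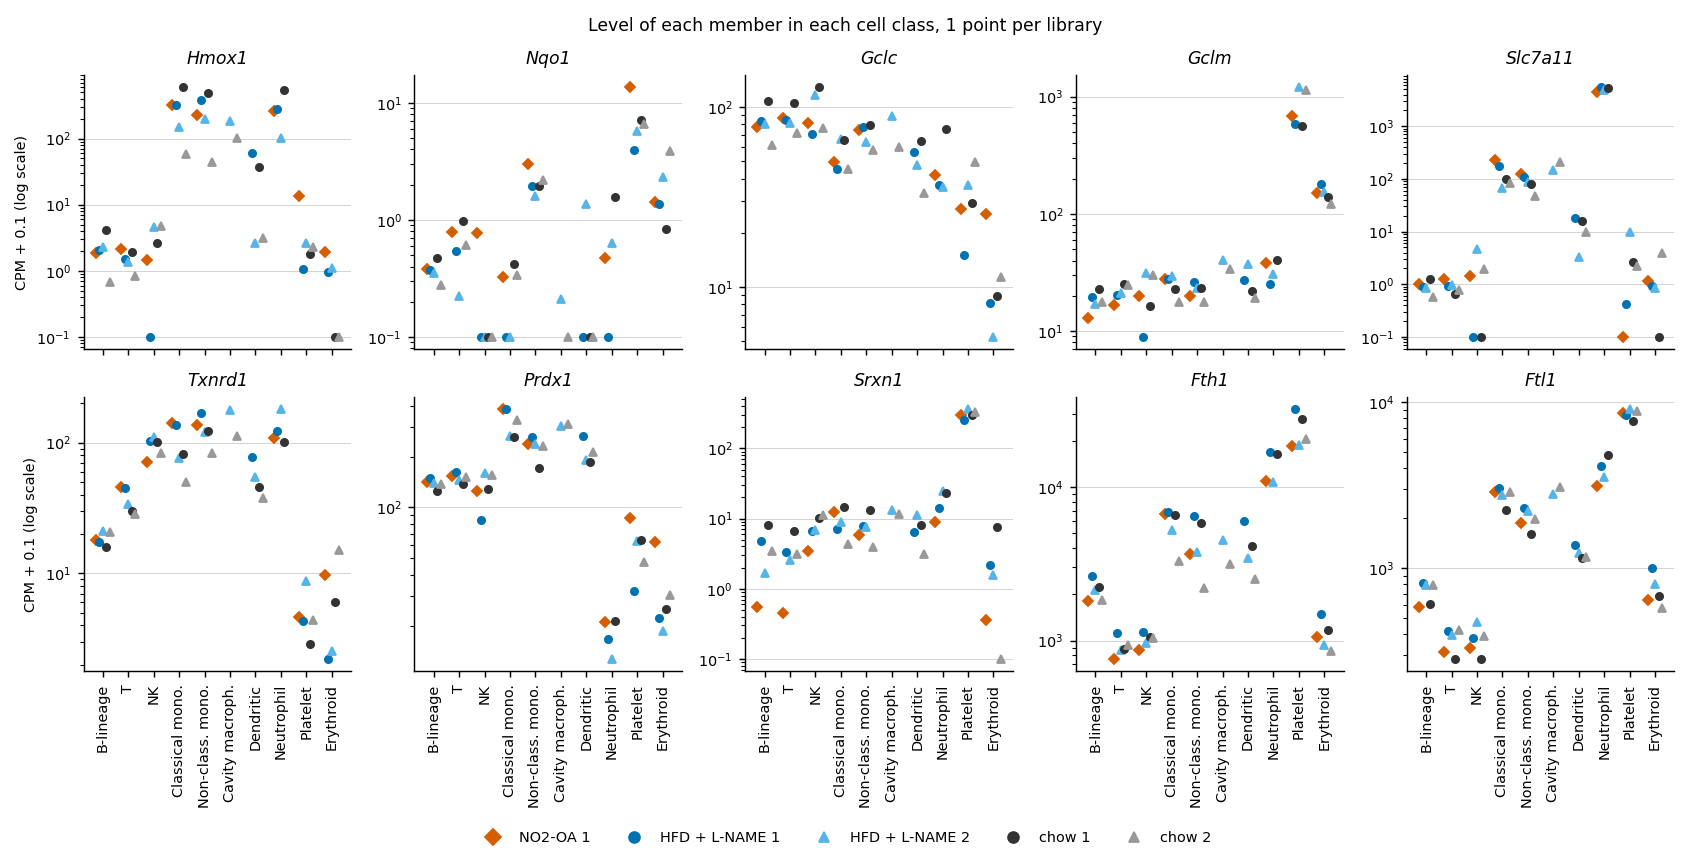
Level of each of the 10 genes (CPM + 0.1, log scale, a separate axis per gene) in 10 cell classes, with 1 point per library that had at least 20 cells of the class. Slc7a11 stands apart in neutrophil-like cells, at 4390 to 5551 CPM, and Gclm and Srxn1 stand apart in platelet-like cells.

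Of the enzymes that act on haem and quinones, Hmox1, haem oxygenase 1, opens the haem ring and releases iron. It averaged 300.2 ± 186 CPM in neutrophil-like cells (SD, n = 4 libraries), 291 ± 208 CPM in classical and 268 ± 173 CPM in non-classical monocyte-like cells (n = 5 each), and these 3 classes overlapped. The next classes down were cavity-type macrophage-like cells at 185 and 102 CPM and dendritic-like cells at a mean of 26.0 CPM, and all other classes averaged 4.20 CPM or less. Classical and non-classical monocyte-like cells, which were 3.14% and 4.18% of all kept cells, held 39.6% and 31.8% of all Hmox1 UMIs. Nqo1, a quinone reductase and a textbook NRF2 target of many tissues, had 260 UMIs over all 54971 kept cells. Its highest level was in platelet-like cells, at a mean of 7.33 CPM with a range of 3.89 to 13.6, and it averaged 0.16 CPM in classical monocyte-like and 0.27 CPM in B-lineage-like cells.

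The glutathione genes went separate ways although 2 of them code for parts of 1 enzyme. Gclc, the catalytic subunit of glutamate-cysteine ligase, averaged 94.8 ± 26.2 CPM in NK-like, 86.1 ± 12.2 CPM in T-like and 81.9 ± 16.7 CPM in B-lineage-like cells (n = 5 each), and every class overlapped with the next in order. It was lowest in platelet-like (31.5 CPM) and erythroid-like cells (11.8 CPM). Gclm, the modifier subunit of the same enzyme, had another order: it averaged 834 ± 312 CPM in platelet-like and 149 ± 21.8 CPM in erythroid-like cells, against 18.0 ± 3.72 CPM in B-lineage-like cells (n = 5 each). Libraries of the platelet-like and erythroid-like classes did not overlap with each other or with the class below. Platelet-like cells were 6.02% of kept cells and held 43.8% of Gclm UMIs.

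Slc7a11, the light chain of the transporter that takes up cystine for glutathione synthesis, had the sharpest pattern. Neutrophil-like cells had 4390 CPM in the NO2-OA library, 5551 and 4802 CPM in HFD + L-NAME libraries 1 and 2, and 5427 CPM in chow library 1. Chow library 2 had 2890 CPM from 12 cells. The mean of the 4 libraries with at least 20 cells was 5042 ± 545 CPM (SD), 28.6-fold that of the next class, the cavity-type macrophage-like cells, which had 147 CPM in HFD + L-NAME library 2 and 206 CPM in chow library 2. Neutrophil-like cells were 2.98% of kept cells and held 85.6% of all Slc7a11 UMIs, at 27.9 UMIs per cell. Monocyte-like classes followed, with 47.0 to 228 CPM, and B-lineage-like and T-like cells averaged 0.82 and 0.83 CPM. The heavy chain of the same transporter, Slc3a2, did not follow this order: it averaged 89.8 CPM in neutrophil-like cells, 245 CPM in NK-like and 116 CPM in T-like cells.

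At a finer clustering the neutrophil-like cells fell into a large group and a small group high in Ngp, a granule gene of immature neutrophils. This division was described after the data were seen. The large group, led by Acod1 and Il1b, scored only a little higher on neutrophil than on basophil or mast markers (3.08 against 2.72). It had no name of its own there, so with that clustering the named class was the Ngp-high group alone. Over the 2 libraries with at least 20 cells of that group, Slc7a11 averaged 1785 CPM and Hmox1 27.7 CPM. Hmox1 was at 50.7 CPM in the NO2-OA library and 4.73 CPM in HFD + L-NAME library 2. It was at 97.6 CPM in HFD + L-NAME library 1 (14 cells) and 28.5 CPM in chow library 1 (5 cells). In the large group Slc7a11 was at 5584 CPM in the NO2-OA library, at 6067 and 5285 CPM in HFD + L-NAME libraries 1 and 2, and at 5733 CPM in chow library 1. In the Ngp-high group it was at 1905 CPM in the NO2-OA library (75 cells) and at 1464 and 1664 CPM in HFD + L-NAME libraries 1 and 2 (14 and 23 cells). Fth1 was likewise lower in the Ngp-high group, at 5226 CPM against 13849 CPM in the large group of the NO2-OA library. The Ngp-high group had 75 cells beside 402 Ngp-low cells in the NO2-OA library and 5 beside 302 in chow library 1, and whether its share moved the class's Slc7a11 level was not tested.

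**Figure D2:**
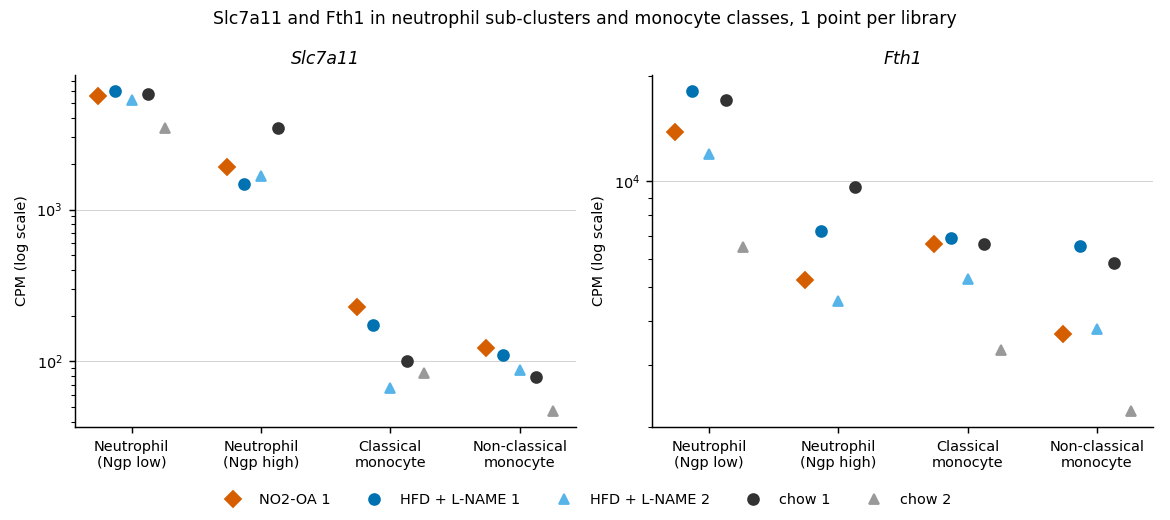
Slc7a11 and Fth1 (CPM, log scale) in the 2 groups that neutrophil-like cells form in the finer clustering and in both monocyte-like classes, 1 point per library with at least 5 cells. Both genes are higher in the Ngp-low than in the Ngp-high neutrophil-like cells of every library that has both, and the chow library 2 point rests on 11 cells and the Ngp-high chow library 1 point on 5 cells.

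The thioredoxin and peroxiredoxin genes also differed by class. Txnrd1, the cytosolic thioredoxin reductase, was at 112 to 176 CPM in cavity-type macrophage-like, 101 to 180 CPM in neutrophil-like and 83.5 to 169 CPM in non-classical monocyte-like cells, which overlapped, and at 18.5 ± 2.32 CPM in B-lineage-like cells (SD, n = 5). Prdx1, a peroxiredoxin that destroys hydrogen peroxide, averaged 324 ± 58.6 CPM in classical monocyte-like cells, 150.0 ± 8.80 CPM in T-like and 138 ± 8.71 CPM in B-lineage-like cells (n = 5 each). It was lowest in neutrophil-like cells, at 17.8 ± 4.11 CPM (n = 4), the class with the second highest Txnrd1. Srxn1, sulfiredoxin, which repairs overoxidised peroxiredoxins, averaged 309 ± 40.3 CPM in platelet-like cells (n = 5), which held 62.7% of its UMIs. Neutrophil-like cells came next at 17.5 ± 7.35 CPM (n = 4), and libraries of these 2 classes did not overlap.

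Platelet-like cells also fell into groups at the finer clustering, again described after the data were seen. The median cell of the first group was shallow, at 0.124 of its library's median UMIs, and that of the second was at 0.891. Gclm was higher in the first than in the second in every library: it was at 852 CPM against 597 CPM in the NO2-OA library, at 819 against 571 CPM and 1283 against 917 CPM in HFD + L-NAME libraries 1 and 2, and at 1580 against 551 CPM and 1749 against 590 CPM in chow libraries 1 and 2. Fth1 was higher in the second group in every library. The first group had 71 cells in the NO2-OA library, 139 and 1533 cells in the HFD + L-NAME libraries and 85 and 221 cells in the chow libraries. The second had 26 cells, 405 and 120 cells, and 601 and 36 cells in that order of libraries, so the makeup of the class differed between libraries of 1 group.

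Fth1 and Ftl1, the heavy and light chains of ferritin, were highest in platelet-like and then neutrophil-like cells. Fth1 averaged 23730 ± 6168 CPM in platelet-like cells (n = 5), 13828 ± 3286 CPM in neutrophil-like cells (n = 4) and 5754 ± 1510 CPM in classical monocyte-like cells (n = 5). Ftl1 averaged 8529 ± 538 CPM, 3891 ± 729 CPM and 2763 ± 302 CPM in the same classes. Ftl1 can share reads with near-identical copies, of which Ftl1-ps1 had 3716 UMIs beside 437976 for Ftl1. Its counts are uncertain for that reason, by an amount that these counts do not give. UMIs of Fth1 per UMI of Ftl1 averaged 3.54 ± 0.42 in neutrophil-like cells (n = 4) and 1.49 ± 0.21 in erythroid-like cells (n = 5), and within 1 class the ratio varied with the library. In non-classical monocyte-like cells it was 1.97 in the NO2-OA library, 2.85 and 1.71 in HFD + L-NAME libraries 1 and 2, and 3.64 and 1.12 in chow libraries 1 and 2, so the chow libraries bracketed all others.

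Between NO2-OA and HFD + L-NAME, none of the 10 genes passed in any of the 5 classes. Each class was fitted across all its genes with edgeR's quasi-likelihood test on summed UMIs, with Benjamini-Hochberg adjustment and a false discovery rate of 0.05, and the lone NO2-OA library was assumed to vary like the others. The smallest adjusted p of any of the 10 genes was 0.812. Over all genes the percentages called were 0% in B-lineage-like and T-like, 0.0346% in classical monocyte-like, 0% in non-classical monocyte-like and 0.0148% in platelet-like cells. At an unadjusted p under 0.05 stood 270, 250, 200, 225 and 358 genes of these classes, in that order, and DESeq2 called 44, 41, 8, 5 and 1. Of the 10 genes, Srxn1 in B-lineage-like and in T-like cells had an unadjusted p under 0.05, and DESeq2 called it in T-like cells.

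The fold changes of the 10 genes lay on both sides of 0 under NO2-OA. They were above 0 for 2 of 10 in B-lineage-like cells (median log2 fold change −0.19; −0.02 over all genes) and for 7 of 9 in classical monocyte-like cells (0.24; 0.0025). They were above 0 for 2 of 9 in non-classical monocyte-like cells (−0.295; −0.0096) and 3 of 10 in platelet-like cells (−0.32; −0.25). In T-like cells they were above 0 for 4 of 10, with a median of −0.04 that was 0.04 when scaled by library totals alone. In non-classical monocyte-like cells the median was 0.10 without HFD + L-NAME library 1. Scaling by library totals alone moved the median of all genes in platelet-like cells by 0.269 for this comparison and by −0.195 for HFD + L-NAME against chow. Of the genes fitted, libraries of the groups did not overlap for 8 of 10 in B-lineage-like and 9 of 10 in T-like cells, where 63.9% and 64.7% of all genes did not. They did not overlap for 3 of 9 in classical and 6 of 9 in non-classical monocyte-like cells (59.6% and 65.4% of all genes) and for 5 of 10 in platelet-like cells (73.2%). Nqo1 was too low for the fit in both monocyte-like classes. The platelet-like sums of the NO2-OA library held 221048 UMIs from 100 cells, against 1953182 or more in each HFD + L-NAME library, which left low genes there with few UMIs.

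**Figure D3:**
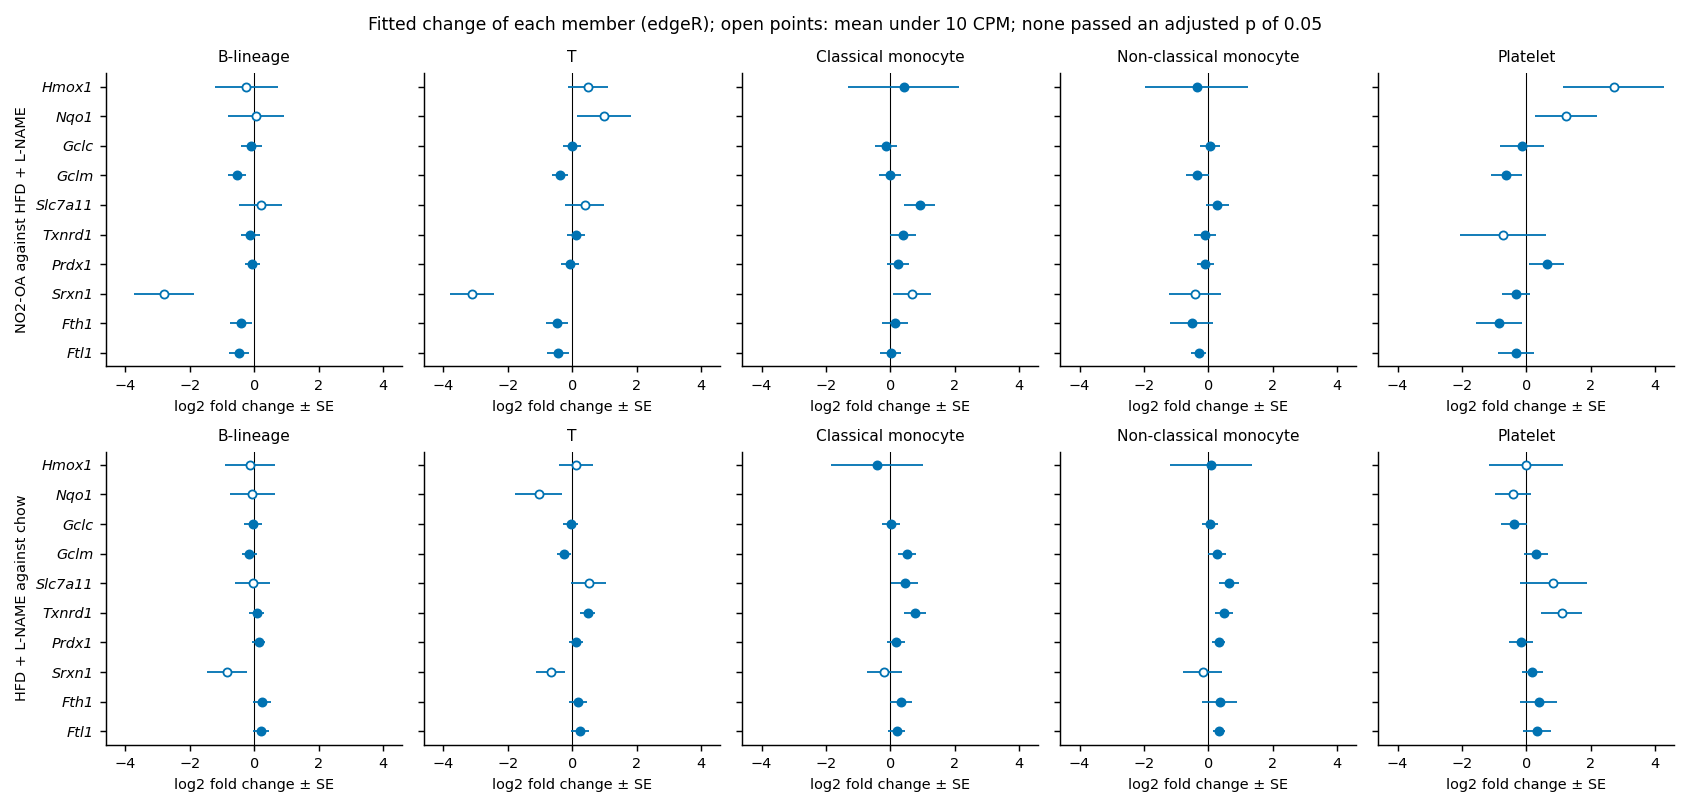
Fitted log2 fold change ± SE of each gene in 5 classes, for NO2-OA against HFD + L-NAME (top) and HFD + L-NAME against chow (bottom), with open points for means under 10 CPM. Most genes lie within 1 of 0, and Srxn1 in B-lineage-like and T-like cells under NO2-OA lies at −2.80 and −3.13; Nqo1 in monocyte-like cells was not fitted, and Slc7a11 in platelet-like cells under NO2-OA is not drawn because its SE was 5.59.

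Genes were described singly where the groups did not overlap, the mean was at least 10 CPM and the log2 fold change at least 0.5 in size. Tests outside this rule are given as well and were chosen after their values were seen. They are of Slc7a11 in non-classical monocyte-like cells under NO2-OA, ferritins in lymphocytes, Srxn1 in lymphocytes and monocyte-like cells, Txnrd1 and Hmox1. Under NO2-OA, 5 of the tests of the 10 genes met the rule. Of all genes of at least 10 CPM, 3.95% met it in B-lineage-like and 4.69% in T-like cells. It was met by 8.63% in classical monocyte-like, 9.21% in non-classical monocyte-like and 42.9% in platelet-like cells. In classical monocyte-like cells Slc7a11 was at 228 CPM in the NO2-OA library and at 173 and 66.7 CPM in HFD + L-NAME libraries 1 and 2. The log2 fold change was 0.91 ± 0.49 (SE; edgeR adjusted p = 1.00), and within the first replicates it was 0.40. The HFD + L-NAME libraries differed from each other by more than the NO2-OA library differed from the nearer of them. Over 17 alternative settings the fold change ranged from 0.38 to 1.83, and it was 1.83 without HFD + L-NAME library 1. Summed neutrophil markers stood beside it at 490 CPM in the NO2-OA library (9 of 10 detected) and at 394 and 327 CPM in the HFD + L-NAME libraries (7 and 8 of 10), with Ly6g at 0 in each. Erythroid markers were at 6561 CPM in the NO2-OA library and at 163 and 280 CPM in the HFD + L-NAME libraries, and the part of either list was not tested. Per 1000 neutrophil-marker UMIs, classical monocyte-like cells held 465 Slc7a11 UMIs in the NO2-OA library and 439 and 204 in HFD + L-NAME libraries 1 and 2. Neutrophil-like cells held 28.7 in the NO2-OA library and 42.6 and 45.2 in the HFD + L-NAME libraries. In non-classical monocyte-like cells Slc7a11 was at 122 CPM in the NO2-OA library and 110 and 88.4 CPM in the HFD + L-NAME libraries, with a fold change of 0.28 ± 0.36.

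Gclm in B-lineage-like cells was at 12.8 CPM in the NO2-OA library and at 19.5 and 16.9 CPM in HFD + L-NAME libraries 1 and 2 (log2 fold change −0.53 ± 0.28; adjusted p = 1.00 by edgeR). Platelet markers in these cells moved with it. Summed over 8 markers, all detected in every library, they were at 41.4 CPM in the NO2-OA library, at 444 and 205 CPM in the HFD + L-NAME libraries and at 708 and 370 CPM in the chow libraries. In B-lineage-like cells with no platelet-marker UMI, Gclm was at 11.8 CPM in the NO2-OA library, 12.5 and 13.5 CPM in the HFD + L-NAME libraries and 11.7 and 13.3 CPM in the chow libraries. That range is narrower than the range over all B-lineage-like cells, which reached 23.0 CPM in chow library 1. Cells with no platelet-marker UMI ranged from 17.2% of the class in chow library 1 to 89.0% in the NO2-OA library. The part of platelet RNA in the Gclm values was not tested.

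Ferritin chains were lower in the NO2-OA library than in both HFD + L-NAME libraries in both lymphocyte classes and in non-classical monocyte-like cells, and Fth1 also in platelet-like cells. In non-classical monocyte-like cells Fth1 was at 3678 CPM in the NO2-OA library and at 6537 and 3802 CPM in HFD + L-NAME libraries 1 and 2 (log2 fold change −0.52 ± 0.67; edgeR adjusted p = 1.00). In platelet-like cells it was at 18580 CPM in the NO2-OA library and at 32440 and 18897 CPM (−0.86 ± 0.72; adjusted p = 0.812). In both classes the NO2-OA library lay just below the lower of the HFD + L-NAME libraries. In the non-classical cells platelet markers were at 48.6 CPM in the NO2-OA library and at 337 and 296 CPM in the HFD + L-NAME libraries, and erythroid markers were at 17800.3 CPM in the NO2-OA library and at 3498 and 9092 CPM, and their part was not tested. Without HFD + L-NAME library 1 the fold changes were −0.04 in non-classical monocyte-like and −0.02 in platelet-like cells. In B-lineage-like cells Fth1 had −0.42 ± 0.34 and Ftl1 −0.47 ± 0.32, and in T-like cells −0.47 ± 0.34 and −0.45 ± 0.35, with adjusted p = 1.00 for each by edgeR. In B-lineage-like cells with no platelet-marker UMI, Fth1 was at 1794 CPM in the NO2-OA library, at 2546 and 2102 CPM in HFD + L-NAME libraries 1 and 2 and at 2043 and 1733 CPM in chow libraries 1 and 2. In such T-like cells it was at 753 CPM in the NO2-OA library, at 1019 and 767 CPM in HFD + L-NAME libraries 1 and 2 and at 755 and 855 CPM in chow libraries 1 and 2. The exact 95% Poisson interval of HFD + L-NAME library 2 in T-like cells, 740.01 to 795 CPM, included the NO2-OA value. In B-lineage-like cells, 2078 to 2125 CPM, it did not. Ftl1 in such B-lineage-like cells was at 576 CPM in the NO2-OA library, 750 and 764 CPM in HFD + L-NAME and 539 and 731 CPM in chow. In such T-like cells it was at 311 CPM, 371 and 348 CPM, and 232 and 378 CPM. For Ftl1 the intervals of HFD + L-NAME library 2, 749 to 778 and 330 to 367 CPM, included neither NO2-OA value. All these intervals cover counting error only, not the spread between libraries. In such B-lineage-like cells the Ftl1 intervals of chow libraries 1 and 2, 520 to 558 and 715 to 747 CPM, also lay apart.

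Prdx1 in platelet-like cells was at 86.0 CPM in the NO2-OA library, from 19 UMIs, and at 32.1 and 63.0 CPM in HFD + L-NAME libraries 1 and 2 (log2 fold change 0.63 ± 0.53; edgeR adjusted p = 0.812). The exact 95% Poisson interval of the NO2-OA value, 51.8 to 134 CPM, covers counting error only and includes the level of HFD + L-NAME library 2. With doublets kept the fold change was −0.06. Hmox1 and Nqo1 had 3 UMIs each in the platelet-like cells of the NO2-OA library, too few to describe.

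Srxn1 had the widest gap of the 10 genes in both lymphocyte classes under NO2-OA, and it was singled out after its values were seen, because its means were under 10 CPM. B-lineage-like cells had 0.46 CPM in the NO2-OA library (13 UMIs) and 4.65 and 1.58 CPM in HFD + L-NAME libraries 1 and 2, with 8.11 and 3.37 CPM in chow libraries 1 and 2. T-like cells had 0.35 CPM in the NO2-OA library (12 UMIs), 3.20 and 2.49 CPM in the HFD + L-NAME libraries and 6.50 and 2.99 CPM in the chow libraries. The NO2-OA library was the lowest of all 5 in both classes. The log2 fold changes were −2.80 ± 0.94 in B-lineage-like and −3.13 ± 0.68 in T-like cells, with adjusted p = 1.00 for each by edgeR (unadjusted 0.0212 and 0.0019). In T-like cells the adjusted p was 0.0181 with DESeq2 and 0.00097 with no filter on low counts, and up to 1.00 in other settings. In platelet-like cells, where Srxn1 is high, it was at 299 CPM in the NO2-OA library and at 253 and 364 CPM in the HFD + L-NAME libraries, which bracketed it. In classical monocyte-like cells it was higher in the NO2-OA library, at 12.3 CPM, than in the HFD + L-NAME libraries, at 7.04 and 8.94 CPM (0.68 ± 0.59; edgeR adjusted p = 1.00), with 14.3 and 4.29 CPM in the chow libraries.

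Platelet markers in the same lymphocytes followed the same order of libraries. In T-like cells their sum was 42.6 CPM in the NO2-OA library, 332 and 219 CPM in the HFD + L-NAME libraries and 552 and 271 CPM in the chow libraries. Per 1000 platelet-marker UMIs, T-like cells held 8.11 Srxn1 UMIs in the NO2-OA library (exact 95% Poisson interval 4.19 to 14.2), 9.63 and 11.3 in those of HFD + L-NAME and 11.8 and 11.02 in the chow libraries. B-lineage-like cells held 11.02 in the NO2-OA library (5.87 to 18.8), 10.5 and 7.72 in those of HFD + L-NAME and 11.5 and 9.12 in chow. Platelet-like cells held 7.12 in the NO2-OA library, 6.82 and 7.88 in those of HFD + L-NAME and 7.55 and 8.03 in the chow libraries. Classical monocyte-like cells held 88.6 in the NO2-OA library, 23.04 and 18.6 in those of HFD + L-NAME and 22.5 and 17.5 in the chow libraries. Non-classical monocyte-like cells held 119 in the NO2-OA library, 22.9 and 25.5 in those of HFD + L-NAME and 24.0 and 14.8 in the chow libraries. The NO2-OA library was thus lowest in T-like cells, between the others in B-lineage-like cells and highest in both monocyte-like classes on this scale. In T-like cells its interval included the values of all other libraries. In non-classical monocyte-like cells the NO2-OA library held 16 Srxn1 UMIs and 134 platelet-marker UMIs. Srxn1 itself was lower there in CPM than in both HFD + L-NAME libraries (log2 fold change −0.41 ± 0.82; edgeR adjusted p = 0.999). The part of platelet RNA in the Srxn1 values was not tested.

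In every library Srxn1 was lower among lymphocytes with no platelet-marker UMI than among those with 1 or more such UMIs. Of B-lineage-like cells 89.0% had none in the NO2-OA library, against 32.6% and 52.0% in HFD + L-NAME libraries 1 and 2. In those cells Srxn1 was at 0.12 CPM in the NO2-OA library (3 UMIs), at 0.79 and 0.35 CPM in the HFD + L-NAME libraries (9 and 5 UMIs) and at 0.70 and 0.69 CPM in the chow libraries. T-like cells without a marker UMI had 0.17 CPM in the NO2-OA library, 0.49 and 0.51 CPM in the HFD + L-NAME libraries and 1.31 and 0.36 CPM in the chow libraries. These counts of 9 or fewer UMIs leave wide intervals, and in B-lineage-like cells the interval of the NO2-OA library reached 0.35 CPM. Among cells without a marker UMI the NO2-OA library was still the lowest of the 5 in both classes. Cells with a platelet-marker UMI were a smaller share of both lymphocyte classes in the NO2-OA library than in every other library. What this share did to the Srxn1 values was not tested.

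**Figure D4:**
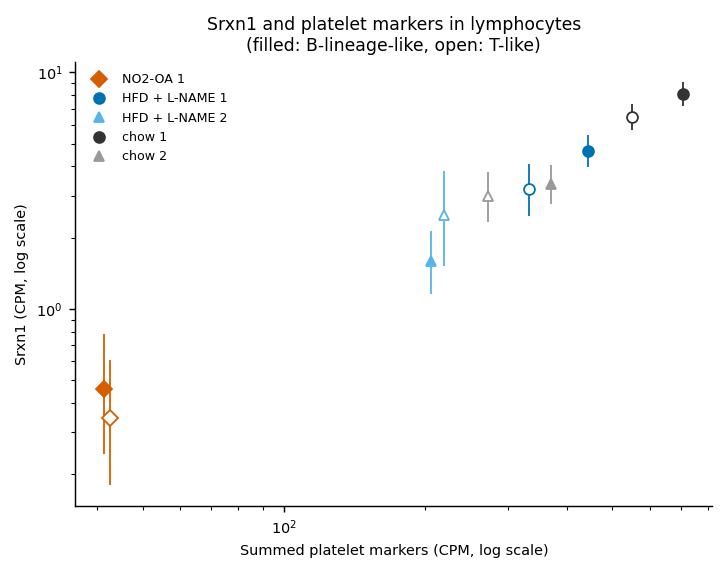
Srxn1 against the summed platelet markers (CPM, log scales) in B-lineage-like cells (filled) and T-like cells (open), 1 point per library with the exact 95% Poisson interval of the Srxn1 count. The NO2-OA points lie at 41.4 and 42.6 CPM of platelet markers and under 0.5 CPM of Srxn1, and chow library 1 is highest on both axes.

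HFD + L-NAME against chow gave no passing gene among the 10 either. The percentages of all genes called were 0% in B-lineage-like, 0.00592% in T-like, 0% in both monocyte-like classes and 0.0443% in platelet-like cells. An unadjusted p under 0.05 was found for 210, 271, 439, 311 and 313 genes in B-lineage-like, T-like, classical monocyte-like, non-classical monocyte-like and platelet-like cells, and for none of the 10, and DESeq2 called 4, 9, 18, 13 and 3 genes, none of them among the 10. Over the groups of 2 libraries an exact two-sided permutation test cannot go below p = 0.33. Log2 fold changes were above 0 for 4 of 10 in B-lineage-like (median −0.05; −0.01 over all genes), 6 of 10 in T-like (0.11; −0.0061) and 7 of 9 in classical monocyte-like cells (0.20; −0.0072). They were above 0 for 8 of 9 in non-classical monocyte-like (0.33; −0.0027) and 6 of 10 in platelet-like cells (0.25; 0.0022). Single libraries moved these medians: without chow library 1 they were 0.70 in classical and 0.84 in non-classical monocyte-like cells, without chow library 2 0.05 in non-classical monocyte-like cells, and without HFD + L-NAME library 1 0.01 in the same cells. Without HFD + L-NAME library 1 the median in T-like cells was −0.07, and without library 2 that in platelet-like cells was −0.16.

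Of the 10 genes, Slc7a11 and Gclm, both of glutathione supply, met the rule for single description in monocyte-like cells. Slc7a11 in non-classical monocyte-like cells was at 110 and 88.4 CPM in HFD + L-NAME libraries 1 and 2, against 79.6 and 47.0 CPM in chow libraries 1 and 2. Its log2 fold change was 0.64 ± 0.30 (edgeR adjusted p = 1.00), with 0.46 and 0.91 within the first and second replicates. Over 18 alternative settings it ranged from 0.28 to 1.12, and it was 1.12 without chow library 1. Neutrophil markers summed to 122 and 114 CPM in the HFD + L-NAME libraries against 117 and 82.1 CPM in chow, and erythroid markers to 3498 and 9092 CPM against 84.2 and 39.6 CPM. Their part in the result was not tested. Gclm in classical monocyte-like cells was at 27.6 and 29.2 CPM in the HFD + L-NAME libraries, against 22.9 and 17.6 CPM in chow (0.52 ± 0.29; adjusted p = 0.998 by edgeR; 0.26 and 0.73 within replicates). Per 1000 platelet-marker UMIs, classical monocyte-like cells held 90.3 and 60.6 Gclm UMIs in the HFD + L-NAME libraries and 36.0 and 71.8 in chow. The part of platelet or erythroid RNA in these Gclm values was not tested. The tests of Slc7a11 and Gclm above were the 2 that met the rule for single description. Of genes of at least 10 CPM, 8.13% met it in classical and 4.88% in non-classical monocyte-like cells. None of the 10 met it in B-lineage-like, T-like or platelet-like cells, where 1.44%, 1.94% and 14.4% of such genes did.

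Like Fth1 and Ftl1, Txnrd1 had a fold change above 0 in all 5 classes between HFD + L-NAME and chow. In classical monocyte-like cells it was at 136 and 76.3 CPM in HFD + L-NAME libraries 1 and 2, against 81.5 and 49.6 CPM in chow (log2 fold change 0.76 ± 0.35; edgeR adjusted p = 0.998), and the groups overlapped although each HFD + L-NAME library was above the chow library of its number, by 0.74 and 0.62. In T-like cells it was at 44.6 and 33.9 CPM against 29.8 and 28.3 CPM in chow, without overlap (0.48 ± 0.23; adjusted p = 1.00). Of the genes fitted, the groups did not overlap for 1 of 10 in B-lineage-like, 4 of 10 in T-like, 1 of 9 in classical and 4 of 9 in non-classical monocyte-like and 1 of 10 in platelet-like cells, where 23.1%, 24.1%, 29.1%, 28.1% and 28.2% of all genes did not.

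Hmox1 varied more between libraries of 1 group than between groups, and in opposite ways within replicates. Classical monocyte-like cells had 318 CPM in the NO2-OA library, 327 and 150 CPM in HFD + L-NAME libraries 1 and 2, and 601 and 57.7 CPM in chow libraries 1 and 2. Non-classical monocyte-like cells had 228 CPM, 380 and 195 CPM, and 494 and 44.4 CPM in the same order. The chow libraries were the highest and the lowest of the 5 in both classes, which left edgeR with standard errors of 1.43 and 1.27 for HFD + L-NAME against chow. The log2 fold changes were −0.40 and 0.08 for that comparison, and 0.41 ± 1.71 and −0.36 ± 1.59 for NO2-OA against HFD + L-NAME. Within the first replicates HFD + L-NAME lay below chow, by −0.88 in classical and −0.38 in non-classical monocyte-like cells, and within the second it lay above, by 1.38 and 2.13. Neutrophil-like cells had 265 CPM in the NO2-OA library, 283 and 101 CPM in the HFD + L-NAME libraries and 551 CPM in chow library 1, the same order of libraries as in classical monocyte-like cells.

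Heat-shock genes, chosen after the values of Hmox1 were seen, also had chow library 1 highest and chow library 2 lowest. Hspa1a and Hspa1b, which encode inducible HSP70 chaperones, summed in classical monocyte-like cells to 1634 CPM in the NO2-OA library, to 3140 and 3544 CPM in HFD + L-NAME libraries 1 and 2, and to 9900 and 77.7 CPM in chow libraries 1 and 2. In B-lineage-like cells, with a mean of 2.13 CPM of Hmox1, they summed to 633 CPM, to 2331 and 2086 CPM, and to 5975 and 10.02 CPM in that order of libraries. The part of the heat-shock genes in the Hmox1 values was not tested. The order of the 3 middle libraries differed between Hmox1 and the heat-shock genes. Fth1 in non-classical monocyte-like cells was also widest between the chow libraries, at 5860 and 2217 CPM, and Ftl1 in the same cells was at 1610 and 1981 CPM.

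**Figure D5:**
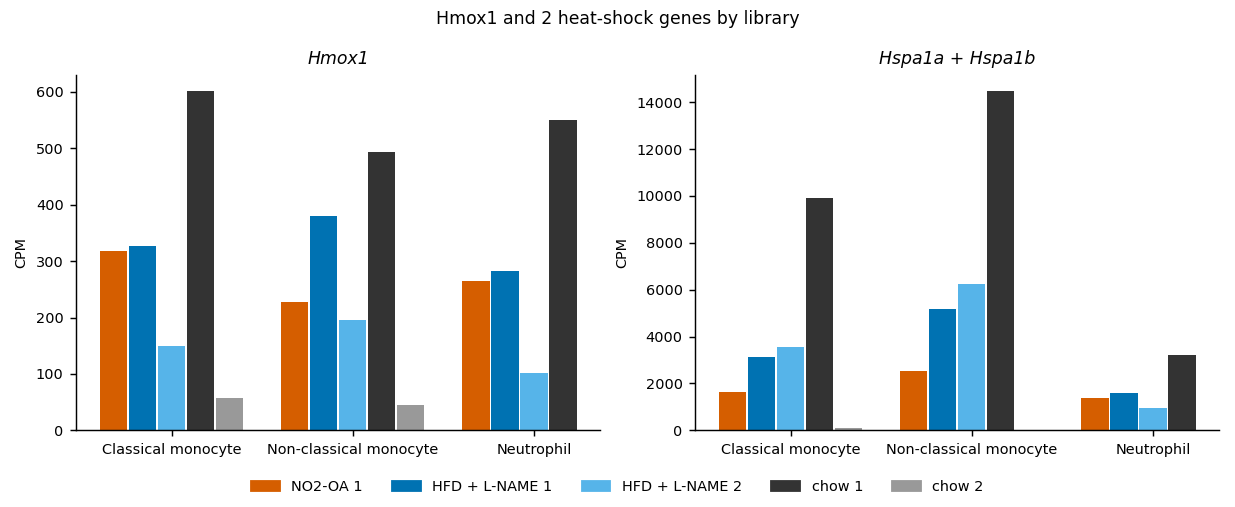
Hmox1 (left) and the sum of Hspa1a and Hspa1b (right) in CPM for each library in 3 myeloid classes, with bars from 0, without the 12 neutrophil-like cells of chow library 2. Chow library 1 is highest in each class and on both panels, and chow library 2 is lowest in both monocyte-like classes.

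Other genes of the pathway were taken from 7 lists with 65 genes matched by a unique symbol. None passed edgeR in any class or comparison. Under NO2-OA, log2 fold changes were above 0 for 20 of 58 in B-lineage-like, 18 of 59 in T-like, 33 of 57 in classical monocyte-like, 19 of 57 in non-classical monocyte-like and 6 of 39 in platelet-like cells, with medians of −0.12, −0.12, 0.04, −0.06 and −0.44. For HFD + L-NAME against chow the counts were 28, 30, 32, 37 and 24 in that order of classes, with medians between −0.01 and 0.10. Regulators of NRF2 had medians between −0.03 and 0.10 in B-lineage-like, T-like and both monocyte-like classes for either comparison, and in platelet-like cells −0.35 under NO2-OA (2 of 8 above 0) and 0.03 for HFD + L-NAME against chow. Among the lists was 1 of other glutathione genes, including Gsr and Slc3a2. Under NO2-OA, 0 of 9 of its fitted genes were above 0 in B-lineage-like and 2 of 10 in T-like cells. In classical monocyte-like cells 4 of 9 were above 0, in non-classical 1 of 9 and in platelet-like cells 0 of 7. Their medians were −0.39, −0.25, −0.12, −0.15 and −1.08, and of all genes 46.8%, 49.3%, 50.3%, 48.9% and 39.7% were above 0 in the same order. Among these genes is Gpx4, which reduces lipid peroxides. In B-lineage-like cells Gpx4 was at 48.1 CPM in the NO2-OA library and at 82.2 and 86.5 CPM in the HFD + L-NAME libraries (−0.83 ± 0.29; edgeR adjusted p = 1.00), and it averaged 2830 CPM in platelet-like cells and 79.7 CPM in B-lineage-like cells.

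The smallest unadjusted p of the pathway belonged to Cbr3, a carbonyl reductase, in classical monocyte-like cells. It was at 43.9 and 37.5 CPM in HFD + L-NAME libraries 1 and 2, against 22.9 and 9.54 CPM in chow libraries 1 and 2 (log2 fold change 1.40 ± 0.38; edgeR adjusted p = 0.724), with 49.0 CPM in the NO2-OA library. Txn1, thioredoxin, in non-classical monocyte-like cells was at 278 and 284 CPM against 165 and 209 CPM in chow (0.60 ± 0.19; adjusted p = 1.00), and at 225 CPM in the NO2-OA library. Abcc1, an efflux pump for glutathione conjugates, in classical monocyte-like cells was at 65.4 CPM in the NO2-OA library and at 42.4 and 32.2 CPM in the HFD + L-NAME libraries (0.80 ± 0.37; adjusted p = 1.00). Gpx4, Cbr3, Txn1 and Abcc1 were named after their values were seen.

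By class, NRF2's own gene Nfe2l2 averaged 766 CPM in neutrophil-like, 681 CPM in non-classical monocyte-like and 54.0 CPM in platelet-like cells, so the class with the most Gclm and Srxn1 was not the class with the most Nfe2l2. Bach1 averaged 471 CPM in classical monocyte-like and 174 CPM in neutrophil-like cells. Neutrophil-like cells were also high in Gsr, glutathione reductase, at a mean of 1359 CPM, in Txn1 at 1319 CPM and in Osgin1 at 145 CPM. They held the iron exporter Slc40a1 at a mean of 143 CPM, against means of 0.14 CPM or less in the other classes. Taldo1, transaldolase of the pentose phosphate pathway, averaged 2776 CPM and Prdx6 1359 CPM in platelet-like cells.

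Over the 25 sums of 5 classes in 5 libraries, the genes most like each of the 10 in pattern were found among 8038 genes with a mean of at least 10 CPM, by Pearson's r of log2(CPM + 1). The sums share libraries and a wide gap between classes, so high values are common and no test is given. For Slc7a11 they were Emilin2, Nlrp3 and Sgms2 (r = 0.99, 0.98 and 0.98), and for Hmox1 Clec4e, Gyg and Ltbr (0.97, 0.97 and 0.96). For Srxn1 they were P2ry12, Gas2l1 and Parvb (0.99 each), and for Gclm Gatad1, Gata2 and Lsm12 (0.99 each). Ftl1 was most like Gng5, Ftl1-ps1 and Eif4ebp1 (0.99 each), and Fth1 like Smim3, Ninj1 and Snap23 (0.97 each). For Txnrd1 they were Noct, Lrrfip1 and Rbms1 (0.98, 0.97 and 0.97), for Prdx1 Plekhm2 and Lrpap1 (0.97 each), for Gclc Pum2, Atg16l1 and Zyg11b (0.96, 0.95 and 0.95), and for Nqo1 Myh9, Palld and Fyco1 (0.95, 0.94 and 0.94).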

How the data were processed

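UMI counts per gene and cell barcode are raw counts as the authors deposited them, 1 matrix per library. They were made with Cell Ranger 7.1.0, per the file headers, and with bcl2fastq and genome build mm39, per the submitters' processing notes. How barcodes were called as cells, and the annotation release, are not given in the sources used here. Barcodes with at least 200 genes and a mitochondrial share below 10% were kept, and the barcodes with the highest Scrublet scores, 0.8% per 1000 barcodes, were left out as doublets. Cells were clustered with scanpy 1.11.5 and leidenalg 0.10.2 (40 principal components, 20 neighbours, resolution 1) and named by marker lists, with score thresholds set after the data were seen. Counts were summed per class and library and fitted over all genes by the robust quasi-likelihood F test of edgeR 4.0.16 under R 4.3.3, after filterByExpr and TMM scaling, with 2 residual degrees of freedom among libraries. Standard errors come from dividing a fold change's size (log2) by the square root of F. The script was tested on simulated data.

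By rule a gene's test is printed where its mean is at least 10 CPM, the groups do not overlap and the log2 fold change is at least 0.5 in size, or where it passed; the other tests printed were chosen after their values were seen. The 10 genes, the lists of pathway and marker genes and this rule were chosen with earlier results of these data known. DESeq2 1.42.0, other scalings, filters, clusterings and left-out libraries were tried. Poisson intervals are exact, at 95%, and cover counting error only. Of the 3 genes most like each gene in pattern, 1 is not reported here.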

Additional observations from a re-analysis of the deposited data

How the results depend on the processing

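No call on the 10 genes was made by edgeR in the main fit, and 164 of 171 alternative counts of called genes were 0 as well. The other 7 counts were 1 each. They were B-lineage-like, T-like and platelet-like cells under NO2-OA with the replicate number as a block, T-like cells under NO2-OA with DESeq2 and with no filter on low counts, and 2 fits that left out a library. Leaving out libraries gave 0 to 1 called genes in classical monocyte-like cells under NO2-OA and 0 to 1 in non-classical monocyte-like cells for HFD + L-NAME against chow, both calls being Slc7a11.

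With the replicate block, Srxn1 had a log2 fold change of −3.29 in B-lineage-like cells (edgeR adjusted p = 0.00665) and −3.45 in T-like cells (adjusted p = 5.4e-06), and Fth1 had −1.27 in platelet-like cells (adjusted p = 0.00391). Same-numbered libraries of HFD + L-NAME and chow deviated together with correlations of 0.08 to 0.35 over 2 pairs, positive in each class. Cavity-type macrophage-like cells were found in the libraries numbered 2 alone, and no NO2-OA library carries that number. The labels do not state a pairing and 2 pairs do not establish one. Whether the number marks a batch was not tested, and the block leaves 1 residual degree of freedom. Srxn1 in T-like cells was −3.15 with DESeq2 (adjusted p = 0.0181) and −3.13 with no filter (adjusted p = 0.00097), and over 17 alternatives its edgeR and DESeq2 adjusted p ranged up to 1.00. Prdx1 in platelet-like cells turned to −0.063 with doublets kept, and the cause was not tested. Platelet-like cells gave no value with a mitochondrial share below 5% or at least 500 genes, because under 50 cells were left in the NO2-OA library. That library is 1 sample, so its own spread is not measured.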
